A study of Homo sapiens with 4 samples.

Results

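Chaperones and protein disulfide isomerases are the proteins that fold other proteins, and 136 of the 17625 listed RNA sites of P5CS were assigned to their genes. These sites were chosen by gene symbol alone. The rule took the numbered HSPA, HSPB, DNAJA, DNAJB and DNAJC genes, the HSP90 genes, HSPD1, HSPE1, HSPH1, the CCT genes with TCP1, the PDIA genes with P4HB, and CALR and CANX. No measured value entered the choice, and symbols that end in another letter, such as HSPA1A and HSPA1B, fell outside it. The sites lay in 16 genes.

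The sites come from NCI-H1299, an established line of human lung cancer cells, grown without a stated treatment. LACE-seq sequences the ends of cDNA copied from RNA that an antibody pulled down, and here 2 libraries used anti-P5CS and 2 used IgG, which has no chosen target. The labels do not say whether the libraries of a group came from separate cultures. P5CS is the mitochondrial enzyme, encoded by ALDH18A1, that makes the precursor of proline from glutamate, and the series title calls it a noncanonical RNA-binding protein that regulates translation. The deposited list gives position, strand, region and gene of each site on hg38 and no value for any library, so anti-P5CS could not be set against IgG, depth is unknown, and no value here has a replicate error or a test.

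Newly made proteins are folded in separate sets of chaperones by compartment. In the cytosol the HSP70 protein HSPA8 takes clients from J proteins (DNAJ) and passes some on to HSP90, while the CCT ring folds actin and tubulin. In the endoplasmic reticulum HSPA5 and HSP90B1 do this work beside the lectins calnexin and calreticulin, which hold glycoproteins, and the disulfide isomerases, which form and shuffle disulfide bonds. In mitochondria HSPA9 pulls proteins in and the HSPD1 and HSPE1 chamber folds them.

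Endoplasmic reticulum members carried most of the sites. Of 20 protein-coding genes placed in the endoplasmic reticulum, 8 had a site (40%, exact binomial 95% interval 19.1 to 63.9) and together held 84 sites. Of 42 placed in the cytosol, some of which also work in the nucleus, 7 had a site (16.7%, 6.97 to 31.4), with 49 sites in all. Of 8 placed in mitochondria, 1 had a site (12.5%, 0.316 to 52.7), with 3 sites. None of the 11 genes given no compartment had one. Over all 81 protein-coding genes that match the rule, 16 had a site (19.8%, 11.7 to 30.1), against 13.2% of 20056 protein-coding RefSeq genes. The interval of the whole family and those of the cytosol and of mitochondria include 13.2%, while that of the endoplasmic reticulum lies above it. The 8 endoplasmic reticulum genes include DNAJC1, whose 2 sites both lie in a nested pseudogene. Without such sites 7 of the 20 had a site, and no interval was computed for that share. The difference between compartments was not tested, and the amount of each RNA in these cells, which was not analysed here, can move with it.

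Most members with a site had several. Their median was 8.5 sites a gene, against 2 for all 2645 protein-coding genes with a site. Of the 16, 11 had 4 or more sites, while 22.8% of those 2645 genes did, and 7 had 11 or more, while 6.2% did. HSPA8 is counted in both, though only 2 of its 12 sites lie outside nested small RNA genes. Without nested sites the median was 8 over 15 genes. It was then 11 in the endoplasmic reticulum and 2 in the cytosol. HSP90B1 ranked 95 and P4HB 103 among the 3521 gene symbols of the list by number of sites. Sites of 1 gene share their transcript, so the intervals given here cover counting error only and are too narrow.

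**Figure D1:**
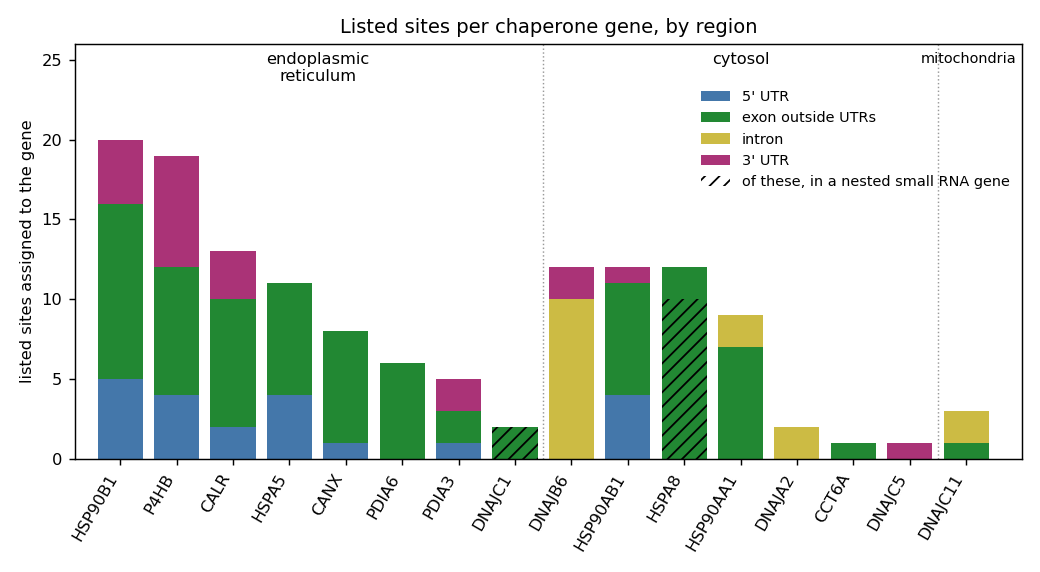
Number of listed sites (y axis) assigned to each of the 16 chaperone genes (x axis), grouped by compartment and coloured by region, with sites inside a nested small RNA gene hatched. HSP90B1 with 20 and P4HB with 19 stand highest, and the list classes no site of an endoplasmic reticulum member as intronic. The 2 sites of DNAJC1 are classed as exonic because they lie in the exon of a nested pseudogene. Of the 12 sites of DNAJB6 10 are intronic, and 10 of the 12 of HSPA8 are in nested small RNA genes.

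Reference sequence was at hand only around gene starts, and it is shown here for the sites that fall there, because both endoplasmic reticulum and cytosol members had listed sites at or near a start. The RefSeq table of GRCh38.p14 gives 250 bases before and 50 after a start for 74 of the 83 genes that match the rule. Each sequence below is read 5′ to 3′ on the strand of the gene, and capitals mark bases from the RefSeq start onward.
CALR, chr19:12938600-12938620, both strands listed: gcggcgtccGTCCGTACTGCA
HSP90B1, chr12:103930400-103930420, opposite strand listed: cttgcggtgtAGTGGGCGGAC
HSP90AB1, chr6:44247120-44247140, both strands listed: CAGTGTTGGGACTGTCTGGGT
HSPE1, chr2:197500400-197500420, both strands listed: CACTAGAGCAGAGTACGAGTC
P4HB, chr17:81860486-81860500, both strands listed, 15 of 41 bases: CGAAGCGCCCCGCCT
The next site of HSP90B1 lies inside the hairpin of the microRNA gene MIR3652, which overlaps its first exon, and the first 30 of its 41 bases are printed from that hairpin, written with T for U. The list annotates both strands of this site to HSP90B1 and not to MIR3652. MicroRNA genes were not among the classes counted as nested small RNA genes, so both strands stay in the counts given without nested sites.
HSP90B1, chr12:103930460-103930489, both strands listed: GGGGTGGAGGCGGCTCCTGCGATCGAAGGG

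The CALR site straddles the RefSeq start, with 9 bases before it and 12 after, and the HSP90B1 site likewise has 10 bases before it. G and C made up 71.4% of the CALR stretch, 66.7% and 73.3% of the 2 from HSP90B1, and 80% of the short one from P4HB. The share was 57.1% in HSP90AB1 and 52.4% in HSPE1. These shares were not compared with those of other gene starts, and say nothing of a base preference.

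HSP90B1 encodes GRP94, the HSP90 protein of the endoplasmic reticulum, and had the most sites of any member, 20 (exact Poisson interval 12.2 to 30.9), in its span on chromosome 12 from 103930410 to 103947926. The list put 5 of them in the 5' UTR class, 11 in exons, 4 in the 3' UTR class and 0 in introns. Sites that share a base on either strand were merged into places, and HSP90B1 then had 12 places that covered 432 bases. Places ran the length of the gene, in exons 5, 7, 9, 12, 15 and 16 of 17 as well as both UTR classes. Its widest site, 121 bases on the opposite strand from 103947300, was also the widest of all members and lay in the 3' UTR class. Of the 12 places 8 held sites on both strands and 4 held only opposite sites.

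P4HB encodes protein disulfide isomerase, which is also the beta subunit of the collagen prolyl 4-hydroxylase, and had 19 sites (11.4 to 29.7) in 11 places on chromosome 17. The sites were grouped at the ends of the genomic span of the transcript. Introns are included in that span, so distances along the spliced RNA differ. The first of 10 equal parts of the span held 8 sites, 6 of them within 700 bases of the start. The last part held 7, all in the 3' UTR class. Between them lay only the 4 sites of exons 7, 9 and 10 of 11. The 7 sites of the 3' UTR class were the most of any of the 16 genes. On the strand of the gene P4HB had 10 sites and opposite to it 9.

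The lectin chaperones both had sites. CALR, the soluble calreticulin, had 13 sites (6.92 to 22.2) in 7 places of a span of only 5881 bases on chromosome 19, or 22.1 sites per 10 kb. It had 2 sites at the start, 8 exonic sites in exons 1, 5, 7 and 9, and 3 in the 3' UTR class. CANX, the membrane-bound calnexin, had 8 sites (3.45 to 15.8) on chromosome 5, 1 at the start of its transcript and 7 in exons 5, 8, 12, 13 and 14 of 15. Its span is 52986 bases long, which gives 1.51 sites per 10 kb, and 5 of its 8 sites were wider than the smallest width of 21 bases.

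HSPA5 encodes BiP, the HSP70 protein of the endoplasmic reticulum and the sensor partner of its stress receptors, and had 11 sites (5.49 to 19.7) on chromosome 9. They crowded at the start, with 9 of the 11 within 700 bases of it, in the 5' UTR class and exons 1 and 2 of 8. The only other place was a pair of sites in exon 8, at 125237060 to 125237080. A single opposite-strand site of 101 bases covered part of exon 2, from 125240760.

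Of the other disulfide isomerases, PDIA6 had 6 sites (2.2 to 13.1) on chromosome 2 and PDIA3 had 5 (1.62 to 11.7) on chromosome 15. PDIA3 encodes ERp57, which works on glycoproteins held by CALR and CANX. The 6 PDIA6 sites lay at 3 positions, in exons 5, 9 and 11 of 13, each listed once per strand. PDIA3 had 1 site in the 5' UTR class, a pair in exon 8 of 10 and a pair in the 3' UTR class. PDIA2, PDIA4 and PDIA5 had none, as had HSPA13 and the J proteins DNAJB9, DNAJB11, DNAJB12, DNAJB14, DNAJC3, DNAJC10, DNAJC16 and DNAJC25. DNAJC1, a J protein of the endoplasmic reticulum membrane, had 2 sites, but both were 1 pair inside RN7SKP37, a pseudogene of the 7SK RNA that lies within the gene, at 21933200 to 21933220 on chromosome 10. Without it, 7 members of the endoplasmic reticulum held 82 sites.

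**Figure D2:**
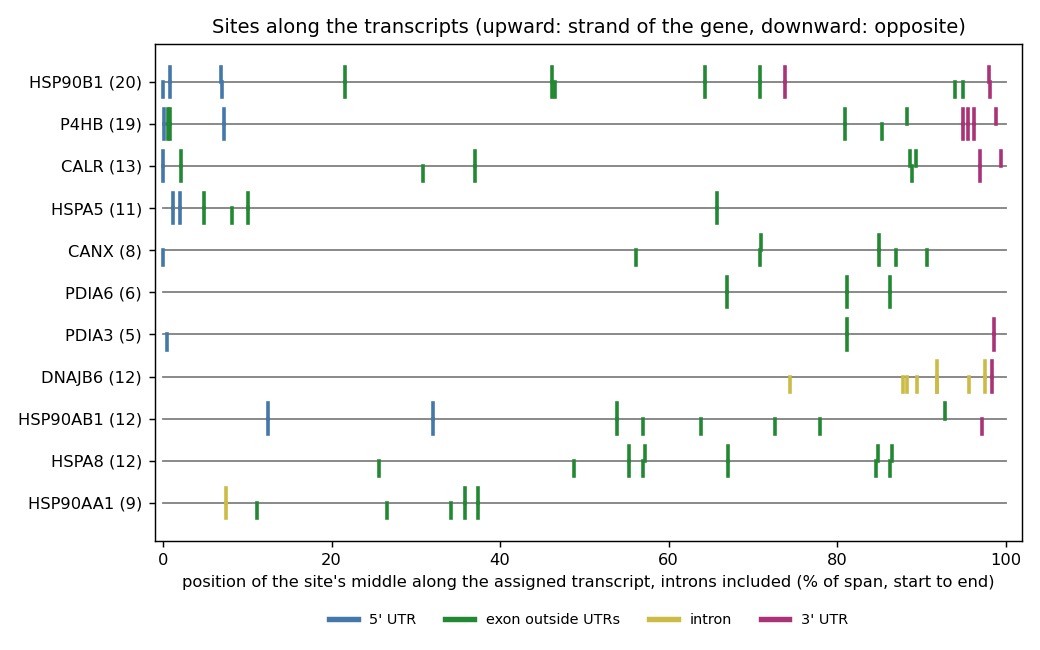
Position of each site along its assigned transcript with introns included (x axis, percent of the span from start to end) for the 11 genes with 4 or more sites (y axis, number of sites in brackets), with sites on the strand of the gene drawn upward and opposite sites downward, coloured by region. HSPA5 sites crowd at the start, P4HB sites at both ends, and DNAJB6 sites lie from 74.4% to 98.4% of the spans of its 2 assigned transcripts.

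In the cytosol, both HSP90 genes had sites. HSP90AB1, the constitutive form, had 12 (6.2 to 21) on chromosome 6, 4 in the 5' UTR class, 7 in exons 6, 7, 9, 10 and 11 of 12, and 1 in the 3' UTR class. HSP90AA1, the heat-inducible form, had 9 (4.12 to 17.1) on chromosome 14, 7 in exons 2, 4 and 5 of 11 and a pair in intron 1. HSP90AA1 sites lay between 7.52% and 37.4% of the transcript span, and none lay in its later exons, whereas HSP90AB1 sites lay between 12.5% and 97.2%. In HSP90AA1 exon 5 had 3 places that began 100 bases apart, at 102084680, 102084780 and 102084880, and they held 5 of its 9 sites. HSP90 genes have processed copies, and of the 9 chaperone pseudogenes with a listed site 6 were HSP90 copies. Reads can be placed in either of 2 near-identical copies, so the counts of HSP90AA1, HSP90AB1, HSP90B1, HSPA8 and PDIA3, whose copies carried sites, are uncertain.

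HSPA8, the constitutive HSP70 protein, had few sites of its own. It was assigned 12 sites (6.2 to 21) on chromosome 11, but 10 of them overlapped the small nucleolar RNA genes nested in its introns, 4 in SNORD14E, 2 in SNORD14D and 4 in SNORD14C. These box C/D RNAs belong to the U14 family, which acts in the processing of 18S ribosomal RNA, and the list's own annotation names them as the exons hit. Only 2 sites were annotated to HSPA8 itself, in exon 3 and exon 5 of 9, each of 21 bases and each opposite to the gene. Without the nested sites, 7 cytosol members held 39 sites, with a median of 2 a gene.

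DNAJB6, a J protein that keeps polyglutamine proteins from aggregating, had 12 sites (6.2 to 21), of which 10 were intronic. Of the other 10 members with 4 or more sites, HSP90AA1 had 2 sites classed as intronic and 9 had 0. HSPA8 is among those 9, since its nested sites are classed as exonic. The 10 intronic sites of DNAJB6 lay on chromosome 7 in introns 5, 8 and 9 of its annotated transcripts, and its other 2 were a pair in the 3' UTR class. Every one of its sites had the smallest width. Of its 9 places, 6 held only opposite sites, 3 held both strands and 0 only the strand of the gene. Its span of 80436 bases gives 1.49 sites per 10 kb.

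The remaining cytosol members had few sites. DNAJA2, a J partner of HSPA8, had a pair in intron 1, 314 bases from its start. CCT6A, a subunit of the CCT ring, had 1 site in exon 5 of 13. It was the only gene of 8 in the ring with an assigned site. DNAJC5, the cysteine string protein of synaptic vesicles, had 1 in the 3' UTR class. None of the 7 small heat shock protein genes (HSPB) had a site, nor had HSPH1, HSPA2, HSPA4, HSPA6, HSPA14 or the stress-inducible J protein DNAJB1. Of all protein-coding genes 13.2% had one. The intervals of the HSPB genes (0 to 41%) and of the ring (0.316 to 52.7%) include that share.

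Of the 8 mitochondrial chaperone genes 1 had a site (12.5%), against 13.2% of all protein-coding genes. DNAJC11, a J protein associated with the complex that organises mitochondrial cristae, had 3 sites (0.619 to 8.77) on chromosome 1, 1 in exon 10 of 16 and a pair in intron 7. HSPA9, HSPD1, HSPE1 and DNAJA3 had no assigned site. A pair at 197500400 to 197500420 on chromosome 2, whose sequence stands among those above, lies within the RefSeq span of HSPE1 but is assigned to the readthrough gene HSPE1-MOB4. Counted by RefSeq span, mitochondrial members therefore had 5 sites in 2 genes. The counts are too small to place the mitochondrial group above or below the other compartments.

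The region of the sites varied with the compartment, a difference that was not tested. The list classed 0 of the 84 endoplasmic reticulum sites as intronic (exact binomial interval 0 to 4.3%). It classed so 28.6% of the cytosol sites (16.6 to 43.3) and 36.7% of the 9846 sites of other protein-coding genes (35.7 to 37.7). Nested sites take the class of the nested gene, so the DNAJC1 pair counts as exonic. Without that pair 0 of 82 endoplasmic reticulum sites (0 to 4.4%) were classed as intronic. Among the 14 intronic cytosol sites 10 belong to DNAJB6, and without DNAJB6 and the nested small RNA sites the cytosol share was 14.8% (4.19 to 33.7) of 27 sites. The 5' UTR class took 20.2% of the endoplasmic reticulum sites (12.3 to 30.4), 8.16% of the cytosol sites (2.27 to 19.6) and 8.25% of those of other protein-coding genes (7.71 to 8.81). Without DNAJB6 and the nested sites the cytosol share of the 5' UTR class was 14.8% (4.19 to 33.7), an interval that contains that of the endoplasmic reticulum. The 3' UTR class took 19% (11.3 to 29.1) of the endoplasmic reticulum sites, 8.16% (2.27 to 19.6) of the cytosol sites and 7.94% (7.42 to 8.49) of those of other protein-coding genes. Of the 16 endoplasmic reticulum sites in that class 7 were in P4HB, and the share without P4HB was not computed. All 6 member sites that the list's text calls promoter were in endoplasmic reticulum members, 2 each in CALR and P4HB and 1 each in CANX and HSP90B1. HSPA5, with 9 sites within 700 bases of its start, had 0. The share of sites so called over the whole list was not counted, so this count cannot be called high or low.

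**Figure D3:**
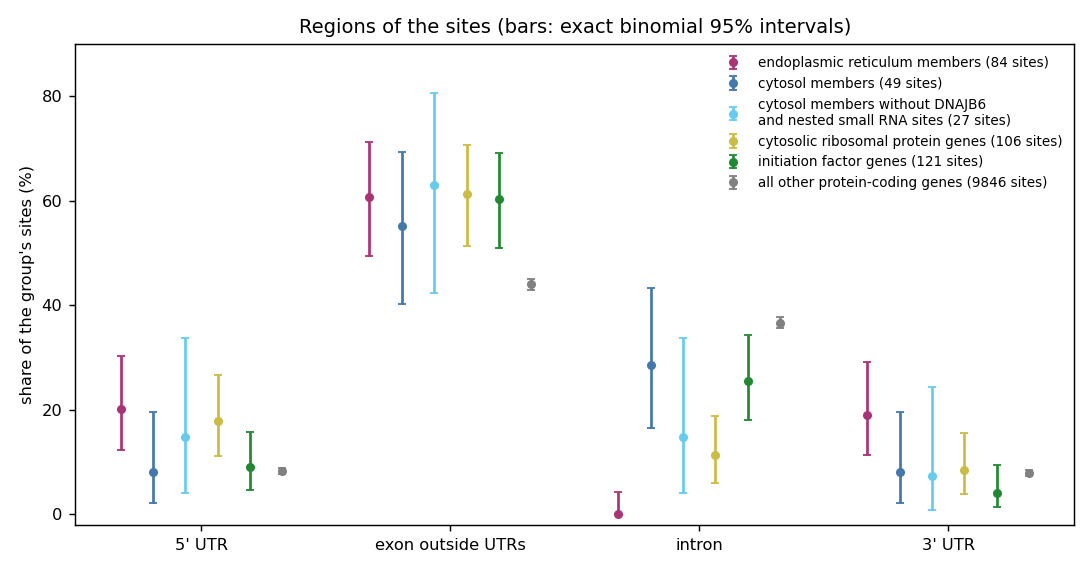
Share of sites (y axis, percent) in each region (x axis) for the chaperone members of 2 compartments, for 2 other gene families and for all other protein-coding genes, with exact binomial 95% intervals that cover counting error only. The list classes 0% of the sites of endoplasmic reticulum members as intronic, against 36.7% for all other protein-coding genes. The 5' UTR and 3' UTR shares of these members, 20.2% and 19%, have intervals above those of that group. Of their 16 sites in the 3' UTR class 7 are in P4HB.

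Genes of the translation machinery gave a scale for these shares. Cytosolic ribosomal protein genes had 106 sites, of which 11.3% (5.99 to 18.9) were intronic, 17.9% (11.2 to 26.6) in the 5' UTR class and 8.49% (3.96 to 15.5) in the 3' UTR class. Translation initiation factor and poly(A)-binding protein genes had 121 sites, of which 25.6% (18.1 to 34.4) were intronic. Over all 136 chaperone sites 11.8% (6.88 to 18.4) were intronic. The median number of sites in genes with a site was 8.5 for 16 chaperone genes, 2 for 39 ribosomal protein genes and 2.5 for 28 initiation factor genes. The shares of these 2 other families with a site were not computed. The 40% of endoplasmic reticulum genes with a site therefore cannot be called particular to them. These differences were not tested.

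Sites of the chaperone genes lay on both strands more often than on either alone. The 136 sites merged into 85 places, and 50 of them (58.8%, 47.6 to 69.4) held both strands, against 39.9% (38.7 to 41) of 6983 places of other protein-coding genes. The share was 50% (37.8 to 62.2) of 70 places of ribosomal protein genes and 39.1% (28.8 to 50.1) of 87 places of initiation factor genes. In the endoplasmic reticulum 34 of 49 places (69.4%, 54.6 to 81.7) held both strands and in the cytosol 15 of 34 (44.1%, 27.2 to 62.1). Without nested sites these shares were 68.8% (53.7 to 81.3) and 34.5% (17.9 to 54.3), and 55.7% (44.1 to 66.9) over all members. The differences were not tested. Of the 35 chaperone places listed on a single strand, 30 held only sites opposite to the gene and 5 only sites on its strand. Those 5 were 2 places of P4HB and 1 each of CALR, HSP90AB1 and DNAJC11. Of single sites, 58.8% (50.1 to 67.2) were opposite to the gene, against 59.9% in other protein-coding genes. The list does not say how its strand was set, so it does not show which strand of a chaperone locus was bound.

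**Figure D4:**
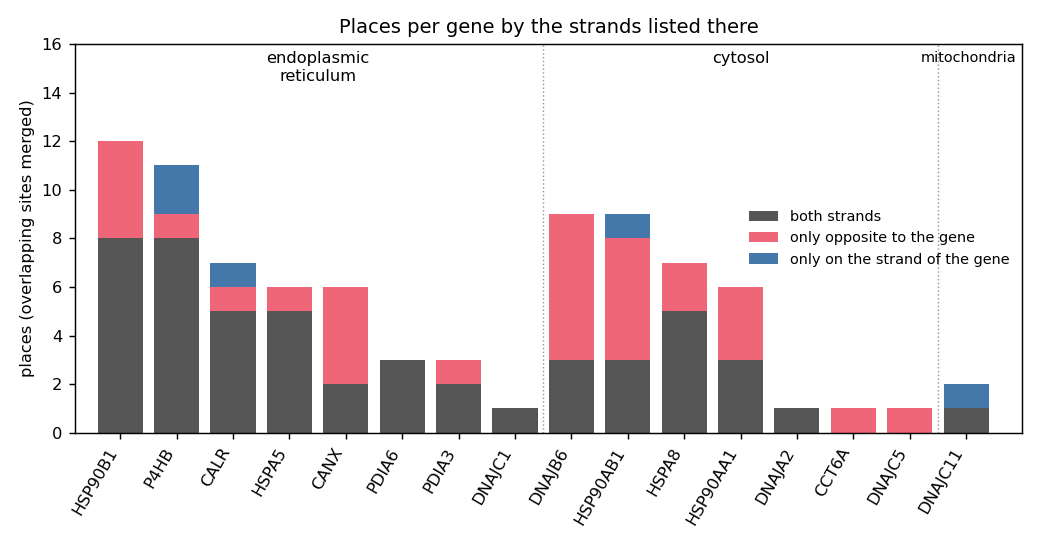
Number of places (y axis, overlapping sites merged) in each of the 16 chaperone genes (x axis), coloured by whether the place holds sites on both strands, only opposite to the gene or only on its strand. Both strands are listed at 8 of 12 places of HSP90B1 and 3 of 3 of PDIA6, whereas 6 of 9 places of DNAJB6 are opposite only.

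Positions along the transcript, with introns included, were compared in 10 equal parts, and differences between compartments were not tested. The first of 10 equal parts held 26 of the 84 endoplasmic reticulum sites (31%, 21.3 to 42) and 4 of the 49 cytosol sites (8.16%, 2.27 to 19.6), against 18.1% in other protein-coding genes. Without DNAJB6 and the nested sites those 4 cytosol sites were 14.8% (4.19 to 33.7), an interval that overlaps that of the endoplasmic reticulum. The last part held 20.2% (12.3 to 30.4) and 22.4% (11.8 to 36.6) of the sites in these 2 compartments, against 13.2% in other protein-coding genes. Both intervals include 13.2%. Of the 11 cytosol sites in the last part 8 were those of DNAJB6, and the cytosol share of the last part was 11.1% (2.35 to 29.2) without DNAJB6 and the nested sites. Of the 26 in the first part 8 were in P4HB, 7 in HSPA5, 5 in HSP90B1 and 4 in CALR.

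The choice of genes did not use promoter elements. Both elements searched below were picked after the site counts were seen, so their matches are a description and no independent support. The endoplasmic reticulum stress element, to which ATF6 binds with NF-Y, was searched as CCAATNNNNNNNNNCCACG on both strands of the promoter windows. It was found in 27 of 35116 windows (0.0769%), which belong to 25 of 27305 genes. Of these 25 genes 5 match the chaperone rule, and all 5 are endoplasmic reticulum members with sites. The other 20 genes had no assigned site, and 8.39% of all genes in the promoter table had one. This difference was not tested. The matches, read with the CCAAT end first and with the fixed letters in capitals, were as follows.
HSPA5, chr9:125241391-125241409: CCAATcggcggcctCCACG
HSP90B1, chr12:103930216-103930234: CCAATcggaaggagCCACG
HSP90B1, chr12:103930321-103930339: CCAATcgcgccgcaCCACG
CALR, chr19:12938384-12938402: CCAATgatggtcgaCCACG
PDIA6, chr2:10812853-10812871: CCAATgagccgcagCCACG
CANX, chr5:179698778-179698796: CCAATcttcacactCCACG
No window of the 39 cytosol or 8 mitochondrial genes in the table held it. Of 18 endoplasmic reticulum genes with a window 5 held it. P4HB, with 19 sites, had no match in its window. Those 5 and P4HB were the 6 of these 18 genes with a site, and PDIA3 and DNAJC1 had no window to search.

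The heat shock element, bound by HSF1, was searched as GAANNTTCNNGAA on both strands, and no match of it overlapped one of the stress element in a member. It was found in 172 windows (0.49%), which belong to 166 genes. Of the 159 of these that are no members 12 had an assigned site, against 8.39% of all genes in the table. Of the members it was found in 6 of 39 cytosol genes, 1 of 8 mitochondrial genes and 0 of 18 endoplasmic reticulum genes. The cytosol genes were HSP90AA1, HSP90AB1, HSPA8 and DNAJB6, which had sites, and HSPA6 and DNAJA1, which had none. The mitochondrial gene was HSPD1, with no assigned site. A match is only a run of letters and does not show that a factor was bound in these cells.

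The 250 bases before 2 of these starts are printed to show the elements in place, with the matches in capitals. HSP90B1 carries 2 stress elements in opposite directions before the start that its site straddles, and HSP90AB1 carries 2 heat shock elements before the most downstream of its 3 starts in the table.
HSP90B1, chr12:103930160-103930409, plus strand: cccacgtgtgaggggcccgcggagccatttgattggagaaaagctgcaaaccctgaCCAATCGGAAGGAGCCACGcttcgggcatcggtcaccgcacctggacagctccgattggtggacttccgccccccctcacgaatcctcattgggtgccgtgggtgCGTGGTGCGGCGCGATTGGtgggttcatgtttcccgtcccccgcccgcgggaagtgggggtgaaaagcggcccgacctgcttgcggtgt
HSP90AB1, chr6:44247693-44247942, plus strand: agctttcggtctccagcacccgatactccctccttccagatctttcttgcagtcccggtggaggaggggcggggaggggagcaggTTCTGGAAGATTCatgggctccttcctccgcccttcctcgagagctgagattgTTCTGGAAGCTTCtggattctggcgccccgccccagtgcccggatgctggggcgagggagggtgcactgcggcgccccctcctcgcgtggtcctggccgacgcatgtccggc

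Folding genes outside the rule were counted in the same way. Of 29 other genes of endoplasmic reticulum folding and stress 7 had a site (24.1%, 10.3 to 43.5). They were HYOU1, a large HSP70 relative, with 8 sites, the disulfide isomerase TXNDC5 with 3, SEC63 and the prolyl isomerase PPIB with 2 each, and SIL1, UGGT1 and TMX2 with 1 each. Of 28 other cytosolic chaperones and cochaperones 5 had one (17.9%, 6.06 to 36.9), namely the HSP90 cochaperones CDC37 with 3 and STIP1, PTGES3 and FKBP5 with 2 each, and the prefoldin subunit VBP1 with 1. HSPA1A and HSPA1B had none. Of 12 other mitochondrial folding and proteolysis genes 2 had one (16.7%, 2.09 to 48.4), the proteases LONP1 and SPG7 with 4 each. All 3 intervals include 13.2%.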

How the data were processed

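The data are 1 deposited list of 17625 sites. Per the file headers it holds other values than measurements, namely positions, strands, annotation text and gene names, and 0 columns of values per library. Per the submitters' processing notes fastp 0.23.2, STAR 2.7.10a and hg38 were used. Not given in the sources used here are the site caller and its threshold, how IgG was used and whether replicates were pooled. Site starts lie on a grid of 20 bases and the smallest site has 21, which limits the placement of a contact.

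Libraries were grouped by title into anti-P5CS (2) and IgG (2). The comparison between them that had been planned needs values per library and was not run. Sites were taken by the SYMBOL column. All 16 genes were found by Entrez ID in the RefSeq table of GRCh38.p14, which gave spans, classes and promoter windows and whose spans count as overlapped at 1 base. Compartments and lists of related genes were written by hand, and members and lists were chosen with earlier results of these data known. Every member with a site is named, and those with 4 or more are described in full. Members without one are named where they head a family, and others without one, and both motifs, were chosen after the values were seen. Shares have exact binomial and counts exact Poisson intervals at 95%. Alternatives used site width, pairs, strand, gene assignment and single genes. Overlap, merging and motif search were tested on simulated data. Python 3.11.15, pandas 2.3.3, numpy 2.4.6, scipy 1.17.1 and matplotlib 3.10.9 were used.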

Additional observations from a re-analysis of the deposited data

How the results depend on the processing

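No paired analysis was possible because no value belongs to a single library, so neither the fit with the replicate block nor one without a replicate was run. Of 77 alternative values for 13 counts and shares, 61 stayed within 1.5 times the count or within the interval of the share, and 16 did not. Only wider sites left 29 sites in all, 6 in the cytosol, 23 in the endoplasmic reticulum and 0 in mitochondria, with 34.5% in the 5' UTR class and 0% in introns. Only sites on the strand of the gene left 56, 16 in the cytosol and 38 in the endoplasmic reticulum, and only opposite sites left 80, 46 in the endoplasmic reticulum and 1 in mitochondria. These counts are lower because fewer sites enter. By RefSeq span mitochondria had 5 sites at an overlap of 1 base and 5 at 11 bases, in 2 genes, since the HSPE1 pair then counts. Without the gene with most sites of each compartment mitochondria had 0, since DNAJC11 was the only gene there. Leaving out the nested small RNA sites, which was chosen after seeing the data, left 124 sites in 15 genes, the MIR3652 pair of HSP90B1 among them. A share by strand was not computed with each pair counted once, since a pair has both strands. Endoplasmic reticulum members held more sites than cytosol members under each of these settings, in 84 against 49 sites of the full list and 64 against 37 without the gene with most sites of each. Depth is unknown, so a gene without a site may only have been too weakly covered.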

Other observations

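Some processed copies of chaperone genes also carried sites. Of 140 RefSeq pseudogenes named after a chaperone gene 9 had a site, with 21 sites in all. The share of all RefSeq pseudogenes with a site was not counted, so this count cannot be called high or low. HSP90B2P, a copy of HSP90B1 on chromosome 15 from 99257525 to 99260276, had 6 sites in 3 places, and the list assigns them to LRRC28, in which it lies. PDIA3P1, HSP90AB3P and HSP90AA2P had 3 each, HSP90B3P had 2, and HSP90AA6P, HSP90AB6P, HSPA8P14 and HSPA8P1 had 1 each. Every parent gene of these 9 had sites of its own. How many of these reads fit the parent gene equally well was not tested.

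In the CCT ring, a pair of sites at 156337840 to 156337860 on chromosome 1 lies within the RefSeq span of CCT3 but is assigned to TSACC, in whose intron 1 it falls. Both genes overlap there, so the pair cannot be given to either, and CCT6A is the only ring gene with a site of its own by the list.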
